A study of Mus musculus with 2 samples.

Results

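The 6 microRNA genes that encode miR-15a, miR-15b, miR-16, miR-195a and miR-497a were followed in C2C12 myocytes as 3 genomic pairs: Mir15a with Mir16-1, Mir15b with Mir16-2, and Mir195a with Mir497. They were picked by name from the 2202 microRNA genes of the count tables, and all 6 were measured. C2C12 is a mouse muscle precursor line, obtained from ATCC and started from crushed thigh muscle of C3H mice, whose cells stop dividing and turn into muscle cells on induction. The series has 1 group of 2 libraries, biological replicates 1 and 2, both from myocytes at 72 h of differentiation, with no treatment or engineered allele named in the labels. No undifferentiated or otherwise different group enters here, so every comparison below is between the 2 replicate libraries or between genes within them. The labels give each replicate its own biosample of the same line but do not say that the cultures were differentiated separately. The p-values set the difference between these 2 libraries against counting error alone, and that difference may be technical. A line is a single cell source, and the files hold microRNA counts only, so the cell-cycle role for which the family is known was not measured.

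A microRNA acts through its seed, bases 2 to 8 of the mature strand, which pairs with target messenger RNAs and lowers their output. The products of this family share a seed and are known as brakes on proliferation: their established targets include D-type and E-type cyclins, the kinase Cdk6 and the survival factor Bcl2. In mice miR-195 holds back division of postnatal heart muscle cells, and miR-195 and miR-497 keep adult muscle stem cells out of the cycle. MiR-15a and miR-16-1 lie in a region that is often deleted in human chronic lymphocytic leukaemia.

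The 5p products of the 6 genes came to 5 distinct sequences, since both Mir16 genes yield the same miR-16-5p. They are shown because the seed in capitals is what makes the genes 1 family, and the lower-case tail is what tells their reads apart (mature sequences of RefSeq, build GRCm38.p6, written 5′ to 3′, found for 6 of 6 genes).
mmu-miR-15a-5p: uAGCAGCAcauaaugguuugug
mmu-miR-15b-5p: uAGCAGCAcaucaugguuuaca
mmu-miR-16-5p: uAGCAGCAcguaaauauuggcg
mmu-miR-195a-5p: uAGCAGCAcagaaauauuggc
mmu-miR-497a-5p: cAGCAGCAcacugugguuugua

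From position 2 on, the 5 sequences agree over 8 bases, the seed and the base after it. Counted from the 5′ end, miR-16-5p and miR-195a-5p are the closest pair, with 19 of 21 compared positions identical and the substitutions G10A and U11G (miR-16-5p base first). MiR-15a-5p and miR-15b-5p are identical at 18 of 22 positions (A12C, G20A, U21C and G22A, miR-15a-5p base first). MiR-497a-5p is the least like miR-16-5p, with 11 of 22 positions identical, and alone starts with C (U1C against each of the other 4).

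The 2 Mir16 hairpins are shown with their longest common run in capitals, because this run holds the whole of miR-16-5p and their counts depend on it (RefSeq, GRCm38.p6, transcript strand).
Mir16-1: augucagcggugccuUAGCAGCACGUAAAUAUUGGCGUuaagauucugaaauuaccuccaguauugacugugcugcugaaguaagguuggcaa
Mir16-2: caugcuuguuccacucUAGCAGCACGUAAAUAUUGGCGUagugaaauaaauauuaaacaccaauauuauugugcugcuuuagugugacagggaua

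The common run is 23 bases long, at positions 16 to 38 of Mir16-1 and 17 to 39 of Mir16-2. A read of miR-16-5p therefore matches both places equally well, and the layout of the tables, which have a separate entry for reads with more than 1 place, is one in which such a read is given to neither gene. Of all 20-base windows, 4 of 74 in Mir16-1 and 4 of 76 in Mir16-2 occur in the other Mir16 hairpin. No 20-base window of Mir15a, Mir15b, Mir195a or Mir497 occurs in another annotated microRNA hairpin. The counts of Mir16-1 and Mir16-2 are thus uncertain, and they were read, from that layout alone, as counts of reads with 1 place. Reads with more than 1 place numbered 3378438 in replicate 1 and 3295854 in replicate 2, and how many of them were miR-16-5p was not analysed here.

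Positions are on mm10 with GENCODE M21. Mir15a (ENSMUSG00000093007.1) lies on chromosome 14 from 61632027 to 61632110, minus strand, in an intron of the long noncoding RNA gene Dleu2. Mir16-1 (ENSMUSG00000092995.1) follows 54 bases downstream, from 61631880 to 61631972, where an exon of Dleu2 is annotated. Mir15b (ENSMUSG00000065580.2) lies on chromosome 3 from 69009772 to 69009835, plus strand, and Mir16-2 (ENSMUSG00000065606.1) 66 bases on, from 69009902 to 69009996. Both are in an intron of Smc4, which encodes a subunit of condensin, the complex that compacts chromosomes for division. Mir497 (ENSMUSG00000105220.1) and Mir195a (ENSMUSG00000065411.2) lie 241 bases apart on chromosome 11, plus strand, at 70234717 to 70234800 and at 70235042 to 70235135. No host gene is annotated on their strand, and Mir497b (70234692 to 70234816, minus strand) covers the whole Mir497 hairpin on the other strand.

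**Figure D1:**
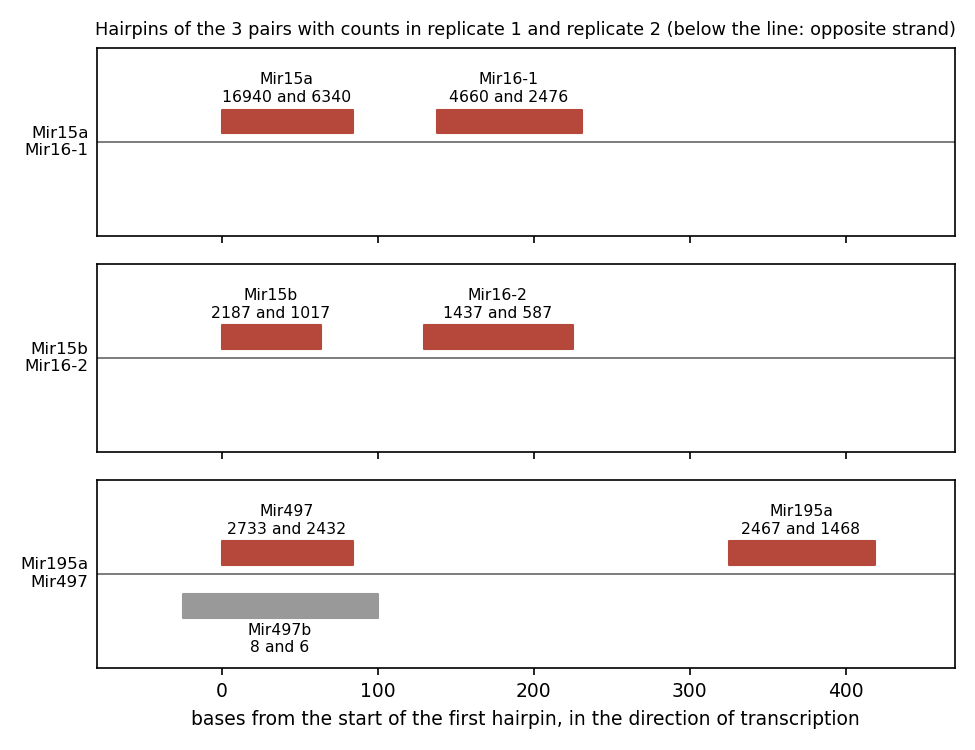
Each panel draws 1 pair to scale, with distance in bases from the start of the first hairpin along the axis and the counts of replicate 1 and replicate 2 at each hairpin. Hairpins above the line are on the strand of the pair. Mir497b, below the line, covers Mir497 and had 8 and 6 counts.

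Replicate 1 held 7581366 counts assigned to the sense strand of microRNA genes and replicate 2 held 9865298, and 314 genes had at least 10 counts in each library. All 6 family genes were among them. Of 8 skeletal muscle microRNA genes used to check the cell type label, 6 were detected, all but Mir133a-1 and Mir133a-2. The 8 genes, led by Mir206, took 35.5% of the assigned counts in replicate 1 and 42.8% in replicate 2. Mir206 alone took 34.1% and 41.7%, so these shares rest mostly on 1 gene. Mean levels of Mir1a-2 and Mir1a-1 were only 3.02 and 2.94 counts per 1000000 assigned. The shares leave out any muscle reads in the entry for more than 1 place. The 5 blood cell marker genes took 0.0105% and 0.0183%, and endothelial Mir126a took 0.0217% in replicate 1 and 0.00429% in replicate 2. Epithelial markers summed to 33 and 21 counts, liver Mir122 to 8 and 4, neural markers to 0 and 1 and pluripotency markers to 2 and 2, with Mir200a and Mir429, all 3 Mir124a genes, Mir9-1, Mir9-2, Mir290a and Mir302a to Mir302d at 0 in both.

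Among reads assigned to genes, the family was a small part of the myocyte microRNAs, and Mir15a had the most counts of the 6 in each library. Its shares and the order of its genes leave out any miR-16-5p reads in the entry for more than 1 place, which held 22.0% of all reads in replicate 1 and 17.9% in replicate 2. Together the 6 genes reached 30424 counts in replicate 1, against 14320 in replicate 2. This is 0.401% of assigned counts in replicate 1 (exact 95% binomial interval 0.397 to 0.406) and 0.145% in replicate 2 (0.143 to 0.148), or 0.273% ± 0.181 (SD, n = 2). The gap between the replicates, 2.76-fold, is far wider than these intervals, which cover only counting error within a library. The reads carry no molecular identifiers, so copies of 1 molecule could enter as separate reads. The pair Mir15a with Mir16-1 supplied 71.0% of the family's counts in replicate 1 and 61.6% in replicate 2. Mir195a with Mir497 supplied 17.1% and 27.2%, and Mir15b with Mir16-2 supplied 11.9% and 11.2%.

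Levels are given as CPM, which are counts per 1000000 assigned to microRNA genes, and are not divided by length, since the mature products are all 21 or 22 bases long. Mir15a reached 16940 counts in replicate 1, against 6340 in replicate 2, that is 2234 and 643 CPM (1439 ± 1126 CPM, SD, n = 2; rank 50 among all genes by mean CPM). It had the most assigned counts of the 6 in both libraries and alone made up 55.7% of the family's counts in replicate 1 and 44.3% in replicate 2. Its neighbour Mir16-1 had 4660 and 2476 counts, 615 and 251 CPM (433 ± 257 CPM; rank 91). Mir16-1 held the second place in both libraries by its assigned counts.

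The Smc4 pair had the fewest assigned counts. Mir15b had 2187 counts in replicate 1, against 1017 in replicate 2, or 288 and 103 CPM (196 ± 131 CPM; rank 118). Mir16-2 had 1437 and 587 counts, 190 and 59.5 CPM (125 ± 92.0 CPM; rank 127), the lowest of the 6 in both libraries. The 2 Mir16 genes summed to 804 CPM in replicate 1, against 310 CPM in replicate 2, without any miR-16-5p reads held in the entry for more than 1 place.

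The pair tied to heart and muscle stem cell arrest lay between the others. Mir497 had 2733 counts in replicate 1, against 2432 in replicate 2, or 360 and 247 CPM (304 ± 80.6 CPM; rank 101), and its level was the steadiest of the 6, with an SD of 26.6% of the mean. Mir195a had 2467 and 1468 counts, 325 and 149 CPM (237 ± 125 CPM; rank 110). Over the 6 genes the median of the mean levels was 270 CPM, against 53.1 CPM over the 314 detected genes.

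The order of the 6 genes was the same in both libraries: Mir15a, Mir16-1, Mir497, Mir195a, Mir15b, Mir16-2. Only at the step from Mir15a to Mir16-1 did the ranges of neighbouring genes not overlap. The lower Mir15a value, 643 CPM, stood above the higher Mir16-1 value, 615 CPM. That step, a log2 ratio of 1.61 averaged over the libraries, was smaller than the log2 ratio of Mir15a between the replicates, 1.80. For each of the 4 later steps the ranges of the neighbouring genes overlapped.

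**Figure D2:**
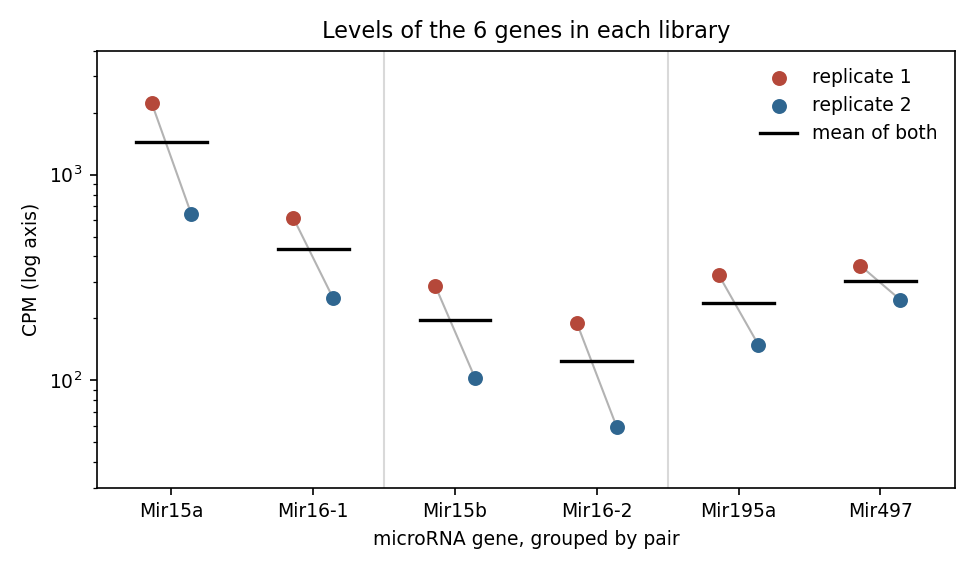
CPM of each gene on a log axis, with replicate 1 (red) to the left of replicate 2 (blue), the mean of both as a bar and the pairs divided by grey lines. Every gene is higher in replicate 1, and Mir15a, at 2234 and 643 CPM, stands above the rest in both libraries.

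All 6 genes were higher in replicate 1, and 5 of them by more than 2-fold. By an exact two-sided binomial test of each gene's counts against the library totals, Benjamini-Hochberg adjusted over the 314 detected genes, 6 of 6 differed between the libraries, and the largest adjusted p among them was 7.22e-42, for Mir497. This test is passed by most genes at this depth: 66.6% of detected genes passed it, 38.2% as higher in replicate 1 and 28.3% as higher in replicate 2. It sets 1 library against the other and says nothing of conditions. The median log2 ratio, replicate 1 over replicate 2, was 1.39 over the 6 genes, against 0.09 over all detected genes. Of the detected genes, 21.97% differed by more than 2-fold in either direction and 15.9% were more than 2-fold higher in replicate 1. Each of the 6 genes had at least 587 counts in each library. Among all genes with at least 100 counts in each library, 166 of 187 passed, 104 of them as higher in replicate 1. The median log2 ratio of those 187 genes was 0.28.

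Mir15a had the widest gap, 3.48-fold (log2 ratio 1.80, exact 95% interval 1.76 to 1.84). It stood at place 22 of 314 by size of the ratio in either direction. Mir16-2 was 3.19-fold higher in replicate 1 (1.67, 1.53 to 1.81), Mir15b 2.80-fold (1.48, 1.38 to 1.59) and Mir16-1 2.45-fold (1.29, 1.22 to 1.36). Mir195a was 2.19-fold higher (1.13, 1.04 to 1.22). Mir497 was the exception in size, 1.46-fold (0.55, 0.47 to 0.63), at place 150 of 314 and close to the median absolute log2 ratio of all detected genes, 0.51. The 4 genes of the Mir15a and Mir15b pairs thus had larger ratios than either gene of the Mir195a and Mir497 pair, although the intervals of Mir16-1 and Mir195a meet at 1.22 and their order turned round with the GC trend removed (1.10 for Mir16-1 and 1.18 for Mir195a). The endothelial marker Mir126a was higher in replicate 1 as well, with 217 CPM in replicate 1 and 42.9 in replicate 2, while the summed blood markers were lower there. Their part in these ratios was not tested.

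Apart from Mir15a, which had the largest ratio but not the lowest GC, the genes with lower GC content of the hairpin had the larger ratios. Whether GC content caused these ratios was not tested. Mir16-2 has 36.8% GC, Mir15b 40.6%, Mir16-1 44.1%, Mir15a 45.2%, Mir195a 54.3% and Mir497 61.9%, against a median of 51.5% over detected genes. Over all detected genes the log2 ratio fell by 0.25 for each 10 percentage points of GC. With that linear trend removed, the 6 genes stayed higher in replicate 1, with log2 ratios from 0.79 to 1.63 and a median of 1.19. The shares of Mir206 also differed, at 34.1% of assigned counts in replicate 1 and 41.7% in replicate 2, and with Mir206 left out of the totals the log2 ratios were 0.37 to 1.62 with a median of 1.21, while the median of all detected genes was −0.09. In that setting 4 of the 6 genes were more than 2-fold higher.

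**Figure D3:**
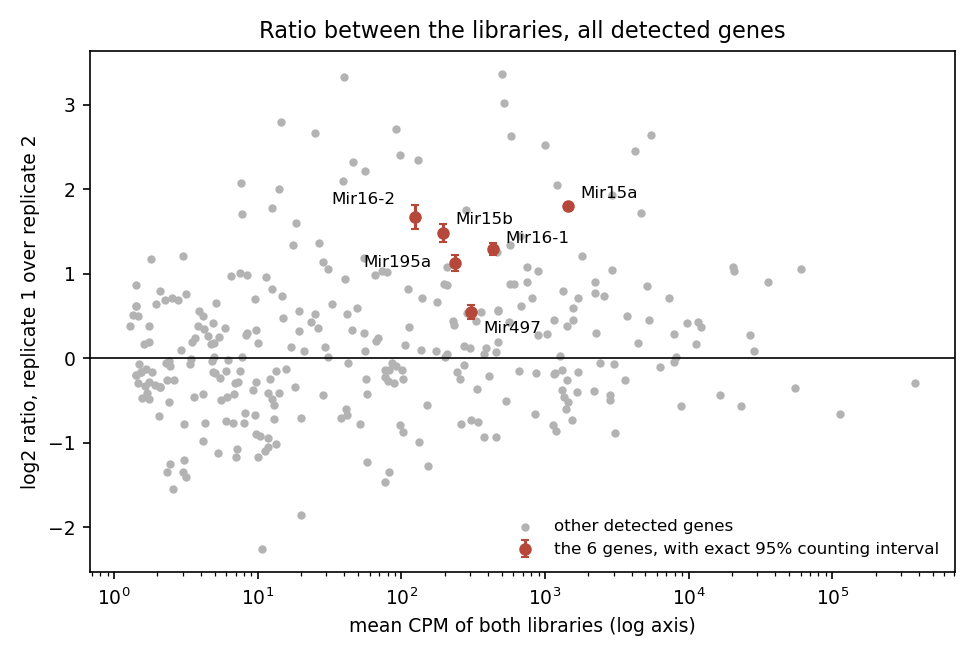
Log2 ratio of replicate 1 over replicate 2 against mean CPM (log axis) for 314 detected genes. The 6 family genes are in red with exact 95% counting intervals, all above 0, from 0.55 for Mir497 to 1.80 for Mir15a.

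Neighbouring hairpins are usually cut from the same transcript. The ratio of their counts within a library, like that of any 2 genes, does not depend on how the libraries are scaled. Mir15a had 3.64 times the count of Mir16-1 in replicate 1 and 2.56 times in replicate 2. Mir15b had 1.52 times the count of Mir16-2 in replicate 1 and 1.73 times in replicate 2. Mir497 had 1.11 times the count of Mir195a in replicate 1 and 1.66 times in replicate 2. In each pair the more abundant gene was the same in both libraries, which held for 47 of 55 neighbouring pairs overall. The ratios with a Mir16 gene are uncertain, as are the Mir16 counts.

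All 3 ratios differed between the libraries by Fisher's exact test (two-sided, Benjamini-Hochberg adjustment over the 55 pairs of neighbouring microRNA genes on 1 strand within 10 kb, some of which share a gene), as did 85.5% of the 55 pairs. The log2 ratio of Mir15a over Mir16-1 was 0.51 higher in replicate 1 (counting SE 0.04, Fisher's exact test, adjusted p = 6.94e-33). That of Mir497 over Mir195a was lower in replicate 1, by −0.58 (SE 0.06, Fisher's exact test, adjusted p = 1.60e-20), a direct test of whether the 2 genes of this pair differed unequally between the libraries. That of Mir15b over Mir16-2 differed by −0.19 (SE 0.09, Fisher's exact test, adjusted p = 0.0426), close to the threshold of 0.05. With pairs of at least 1 count included, its adjusted p was 0.0546. The median absolute shift was 0.51 over the 3 pairs and 0.63 over all 55. By assigned counts the 3 pairs were also more even than most, with a median absolute log2 ratio of 0.70, averaged over the libraries, against 2.92 over all 55. Both sides of this comparison are uncertain. Reads with more than 1 place may be missing from the Mir16 counts and from those of other genes with near-identical copies.

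**Figure D4:**
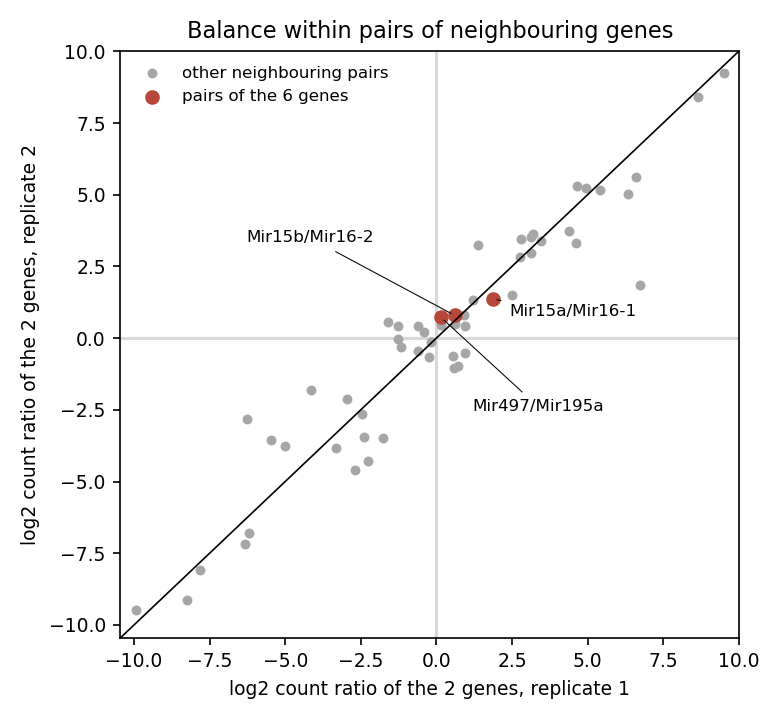
Log2 count ratio of the upstream over the downstream gene of each neighbouring pair, replicate 1 on the horizontal and replicate 2 on the vertical axis, with the line of equality. The 3 family pairs (red) lie above 0 on both axes. Their median absolute shift from the line is 0.51, against 0.63 over all 55 pairs.

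The strand of each read mattered most for Mir497. On the opposite strand Mir497 had 8 counts in replicate 1 and 6 in replicate 2, which are the sense counts of Mir497b, and Mir195a had 1 and 2. Mir15a, Mir16-1, Mir15b and Mir16-2 had 0 opposite-strand counts in both libraries. In the either-strand column Mir497 has 0 counts in both libraries, since reads over 2 genes are set aside there as ambiguous, so its level can be read only from the sense column. MiR-497b has a different seed (ACCACAG), and its hairpin was at 1.06 CPM in replicate 1, against 0.608 CPM in replicate 2.

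Outside the 6 genes, most assigned counts of genes with the family seed were those of Mir322. Of 1738 mature entries in the RefSeq table, 11, from 11 genes, have the seed AGCAGCA: the 6 genes, Mir322 and 4 genes with 0 counts in both libraries (Mir195b, Mir6342, Mir6353 and Mir6419). At this depth a count of 0 leaves room for 0.396 CPM in replicate 1 and for 0.304 CPM in replicate 2, which is 3 counts in each. Mir322 and its neighbour Mir503 lie on the X chromosome, and both are known for promoting cell-cycle exit in differentiating myoblasts. Their 5p products are shown because miR-322-5p repeats the seed, whereas miR-503-5p ends it with another base.
mmu-miR-322-5p: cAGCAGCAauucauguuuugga
mmu-miR-503-5p: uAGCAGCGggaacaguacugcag

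Mir322 stood at 27578 CPM in replicate 1, against 13017 CPM in replicate 2, and took 87.3% and 89.97% of the assigned counts of the same-seed genes (88.6% ± 1.89, SD, n = 2). The 6 family genes took the other 12.7% in replicate 1 and 10.03% in replicate 2. These are counts of whole hairpins, so reads of the 3p strand, which has another seed, are included. Reads of miR-16-5p in the entry for more than 1 place carry the seed and are not in the denominator, so all of these shares could move by an amount that was not analysed here. Mir322 was 2.12-fold higher in replicate 1, within the range of the 6 genes. Mir503, at 1330 CPM in replicate 1 against 969 CPM in replicate 2, was 1.37-fold higher in replicate 1.

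Other cell-cycle microRNAs were set beside the 6 genes, against a background of 38.2% of detected genes higher in replicate 1, 28.3% higher in replicate 2 and a median log2 ratio of 0.09. Of 10 other brakes, all detected, 8 were higher in replicate 1 and 2 in replicate 2 by the binomial test, with a median log2 ratio of 0.45. Mir34c and Mir34a, targets of p53, were 5.49-fold and 4.15-fold higher in replicate 1, but Mir34b of the same list was only 1.09-fold higher. Mirlet7b was lower in replicate 1, with 18538 CPM there and 27399 in replicate 2. Of 11 genes associated with proliferation, 8 were higher in replicate 1, 2 in replicate 2 (Mir19a and Mir19b-1), and Mir92-1 did not pass (382 CPM in replicate 1 and 369 in replicate 2; exact binomial test, adjusted p = 0.215). Their median log2 ratio was 0.29, and that of all genes with at least 100 counts in each library was 0.28. Mir20a of the miR-17-92 cluster was 8.11-fold higher in replicate 1, more than any of the 6 genes. The brake list without the 6 genes took 6.43% of assigned counts in replicate 1 and 4.87% in replicate 2, and the proliferation list took 1.82% and 1.06%. Mir26a-1 of the brake list and several other listed genes have near-identical copies, so their counts are uncertain.

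**Figure D5:**
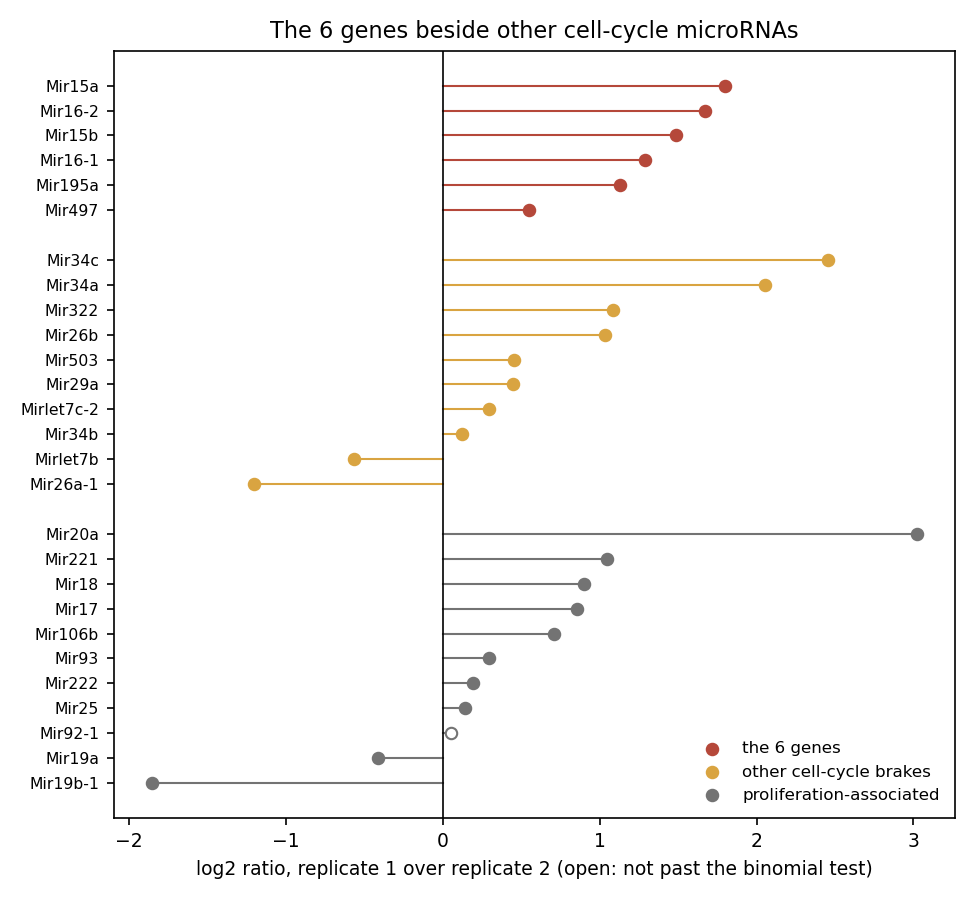
Log2 ratio of replicate 1 over replicate 2 for the 6 genes (red), 10 other cell-cycle brakes (yellow) and 11 genes associated with proliferation (grey), with an open circle for Mir92-1, which did not pass the binomial test. All 6 family genes are above 0, and each of the other lists has 2 genes below 0.

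The genes most like each member were sought by the distance of log2(CPM + 1) over the 2 libraries, among the 314 detected genes. Mir155 was nearest to Mir16-1 (distance 0.14; 651 CPM in replicate 1 and 271 in replicate 2) and the H19-hosted Mir675 to Mir497 (0.12; 339 and 234 CPM). Mir450b, an X-linked neighbour of Mir322, was nearest to both Mir195a (0.27) and Mir15b (0.36), with 279.6 CPM in replicate 1 and 132 in replicate 2. Mir34a was nearest to Mir15a (0.48) and endothelial Mir126a to Mir16-2 (0.50). The sum of the 6 genes lay closest to Mirlet7g (0.33), Mir221 (0.39) and Mir28a (0.48). With 2 libraries this likeness means no more than a similar level and a similar ratio between the replicates.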

How the data were processed

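MicroRNA libraries of 2 replicates were analysed. The authors deposited read counts per microRNA gene, made on mm10 with GENCODE M21, per the deposited notes that accompany the tables. Adapters were trimmed, per the labels' protocols. No source used here gives the aligner or the counting program. The deposited count tables have 3 columns (either strand, sense, opposite strand) and 4 entries that name no gene. In the sense column these entries held 50.6% of reads in replicate 1 and 46.5% in replicate 2, of which multi-mapped reads were 22.0% and 17.9% of all reads. They were left out of totals and tests.

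All 2202 identifiers matched GENCODE M21. CPM and log2 ratios were computed here from the sense counts with Python 3.11.15 and scipy 1.17.1. Genes with at least 10 counts in each library were tested across the whole table with exact binomial tests, and neighbouring pairs with Fisher's exact tests, at an adjusted p of 0.05. Both tests were tried on simulated counts that held counting error only, which cannot show how they behave with further spread between libraries. Scaling alternatives used edgeR 4.0.16 (TMM) and DESeq2 1.42.0 (size factors). The edgeR quasi-likelihood test needs groups to compare and was not used. Mature sequences and Mir16 hairpins are RefSeq's. Stretches shared between hairpins were sought in GENCODE M21 sequences.

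The 6 genes and the lists were chosen with earlier results of these data known. The genes named are the 6 members, genes with the same seed or opposite a member, the listed cell-cycle and marker genes, and the nearest genes by level. Mir503 is named as a neighbour of Mir322 and a listed brake.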

Additional observations from a re-analysis of the deposited data

Results flagged for a closer look

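Signal was seen in columns and entries outside the sense counts of the 6 genes, beyond the 3 counts that a count of 0 allows. On the strand opposite Mir497, 8 counts were found in replicate 1 and 6 in replicate 2. They are the sense counts of Mir497b. The entry for reads with more than 1 place held 3378438 reads in replicate 1 and 3295854 in replicate 2, and it would take reads of miR-16-5p, which both Mir16 hairpins hold. The part that miR-16-5p has in this entry was not tested.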

How the results depend on the processing

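The 6 genes were higher in replicate 1 and past the binomial test under TMM factors, DESeq2 size factors, minimums of 1 and 100 counts, removal of the GC trend and totals without Mir206. In the either-strand counts this held for the 5 genes with counts there, since Mir497 has 0. With Mir16-1 and Mir16-2 summed, a choice made after seeing the data, 5 of 5 passed and the summed log2 ratio was 1.37. TMM and DESeq2 scaling moved every log2 ratio by −0.03 and −0.06, and totals without Mir206 moved the median of all detected genes to −0.09, against 0.09. Over these 8 settings, the main one included, 166 to 227 genes passed. The fewest, 166 of 187 tested, passed with a minimum of 100 counts, and the most, 227 of 555 tested, with a minimum of 1 count. The family's share ranged from 0.138% of all reads to 0.429% of counts without Mir206, and from 0.145% to 0.401% with a replicate left out. Of 3 pairs, 3 passed with neighbours within 1 kb (87.5% of all pairs tested), within 50 kb (82.3%) and with a minimum of 100 counts (90.2%). In the either-strand counts 2 of 2 passed, as did 82.2% of all pairs. With a minimum of 1 count 2 of 3 passed, as did 65.4% of all pairs. There the shift of Mir15b over Mir16-2, −0.19, had an adjusted p of 0.0546 in Fisher's exact test. Counting depth (at least 587 counts per gene and library) limits the balance of Mir15b with Mir16-2, whose shift has a counting SE of 0.09, and the number of libraries limits every value. With the GC trend removed, Mir195a (1.18) had a larger log2 ratio than Mir16-1 (1.10). No paired analysis was possible because the series has 1 group.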
